A study of Mus musculus with 16 samples.

Results

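The 9 genes described here were the simple keratins Krt7, Krt8, Krt18 and Krt19 and the epithelial genes Epcam, Cdh1, Esrp1, Grhl2 and Elf3. They were chosen by gene symbol, and all 9 were found among the 24091 genes of the deposited tables. Messenger RNA had been sequenced from 3 knockout (KO) and 3 control whole pancreata at embryonic day 16.5 (E16.5) and from islets of 5 KO and 5 control male mice aged 60 weeks. KO animals carried Pdx1:Cre and floxed Tff2 alleles (Pdx1:Cre;Tff2fl/fl), and controls carried the floxed alleles without Cre (Tff2fl/fl). The floxed alleles are therefore shared by every animal, no group with Cre alone was analysed here, and Pdx1:Cre acts in the pancreatic epithelium from early development, so that mesenchyme, vessels and blood keep Tff2. Islets were released by collagenase and picked by hand, 1 library per mouse. An E16.5 library holds the acinar, ductal, endocrine, mesenchymal and vascular cells of a whole organ.

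Keratins are the intermediate filaments of epithelia and assemble as obligate pairs of a type II and a type I chain. Krt8 and Krt18 are the first pair made in simple, single-layered epithelia, and Krt7 (type II) and Krt19 (type I) join them mainly in ducts. In the pancreas, ducts hold all of these chains, acinar cells chiefly Krt8 and Krt18, and mesothelium, which covers the organ, makes simple keratins as well. Epcam and Cdh1 (E-cadherin) are adhesion molecules of the epithelial surface, Esrp1 sets epithelial splice patterns, and Grhl2 and Elf3 are transcription factors of epithelial cells.

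The genes lie on 6 chromosomes of the mm10 build. Krt8 (chromosome 15, 101996711 to 102004342, minus strand) and Krt18 (chromosome 15, 102028216 to 102032026, plus strand) are neighbours whose starts face each other across 23873 bases, and Krt7 is on the same chromosome from 101412403 to 101427806. Krt18 thus sits beside the type II keratins, whereas Krt19 is on chromosome 11 from 100140811 to 100145926. A window of 250 bases before the start site was found in RefSeq (GRCm38.p6) for 5 of the 9 genes, Krt7, Krt8, Krt18, Epcam and Elf3, and not for Krt19, Cdh1, Esrp1 and Grhl2. The windows of the 3 genes that fell at E16.5 are shown, since each holds the E-box CACCTG, the sequence to which the epithelial repressors of the ZEB and SNAIL families bind, in capitals.

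Krt8, chr15:102004343-102004592, minus strand: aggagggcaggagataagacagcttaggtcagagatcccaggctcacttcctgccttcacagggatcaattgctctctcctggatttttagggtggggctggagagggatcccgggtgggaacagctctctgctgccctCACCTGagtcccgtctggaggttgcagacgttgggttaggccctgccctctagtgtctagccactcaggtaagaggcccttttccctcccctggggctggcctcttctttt

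Krt18, chr15:102027966-102028215, plus strand: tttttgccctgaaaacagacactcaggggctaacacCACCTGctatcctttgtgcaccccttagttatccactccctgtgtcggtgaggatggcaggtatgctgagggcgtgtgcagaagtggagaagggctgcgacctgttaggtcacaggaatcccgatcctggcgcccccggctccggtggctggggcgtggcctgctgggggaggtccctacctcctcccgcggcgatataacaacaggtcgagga

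Elf3, chr1:135258473-135258722, minus strand: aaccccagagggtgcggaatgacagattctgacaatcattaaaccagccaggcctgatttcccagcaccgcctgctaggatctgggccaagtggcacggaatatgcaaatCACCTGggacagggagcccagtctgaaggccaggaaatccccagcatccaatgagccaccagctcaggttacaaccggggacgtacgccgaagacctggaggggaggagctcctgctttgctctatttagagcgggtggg

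The E-box, searched on both strands, stood 111 bases before the start of Krt8, 214 before that of Krt18 and 140 before that of Elf3, counted to its first base. It was present in all 5 windows found, including those of Krt7 and Epcam, which did not pass the test at E16.5, and in 17.2% of 32851 windows of all genes. The grainyhead site AACCNGTT (1.79% of all windows) and the TATA box TATAAA (12.4%), also searched on both strands, were in none of the 5. Neither was CCGGAA (12% of all windows), a longer form of the ETS core GGAA, searched likewise. The core GGAA itself was not searched, so its absence is not shown. A match describes the letters of the window, and factor binding was not measured.

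Total counts were 14866194 to 22699934 per E16.5 library and 22595400 to 32385042 per islet library. Levels are given as CPM, counts relative to a library total corrected by TMM, a factor that evens out composition. Tff2 was at 2.70, 9.95 and 1.60 CPM in KO pancreata 01, 18 and 19, against 38.7, 22.7 and 35.1 CPM in control pancreata 02, 08 and 13, and at 0 to 0.478 CPM in KO islets against 0.977 to 4.70 CPM in control islets. The pancreas KO 01 held 1601 CPM of summed liver markers, against 312 to 530 CPM in the other 5 pancreata, so the count of genes called at E16.5 is also given without it. The markers of the labelled tissues were present. Summed acinar markers were at 56137 to 105167 CPM in KO pancreata and 113326 to 133691 CPM in control pancreata, and summed endocrine markers at 160345 to 184909 CPM in KO islets and 164942 to 197567 CPM in control islets.

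At E16.5 the KO pancreata had lower Krt18, Krt8 and Elf3 than control pancreata, while Krt19 and Krt7 did not pass the test. Of the 9 genes, 3 fell and 0 rose (edgeR quasi-likelihood test, Benjamini-Hochberg adjusted p under 0.05 over 14914 genes), where 2.68% of all genes tested fell and 3.75% rose, 6.43% in all. The fold change was below 0 for 8 of the 9, as for 50.2% of all genes, and its median was -0.33 against -0.00 over all genes. In 6 of the 9, every KO library lay below every control library, as in 16.1% of all genes tested. In RNA from a whole organ, fewer cells of a type and less RNA per cell cannot be told apart.

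**Figure D1:**
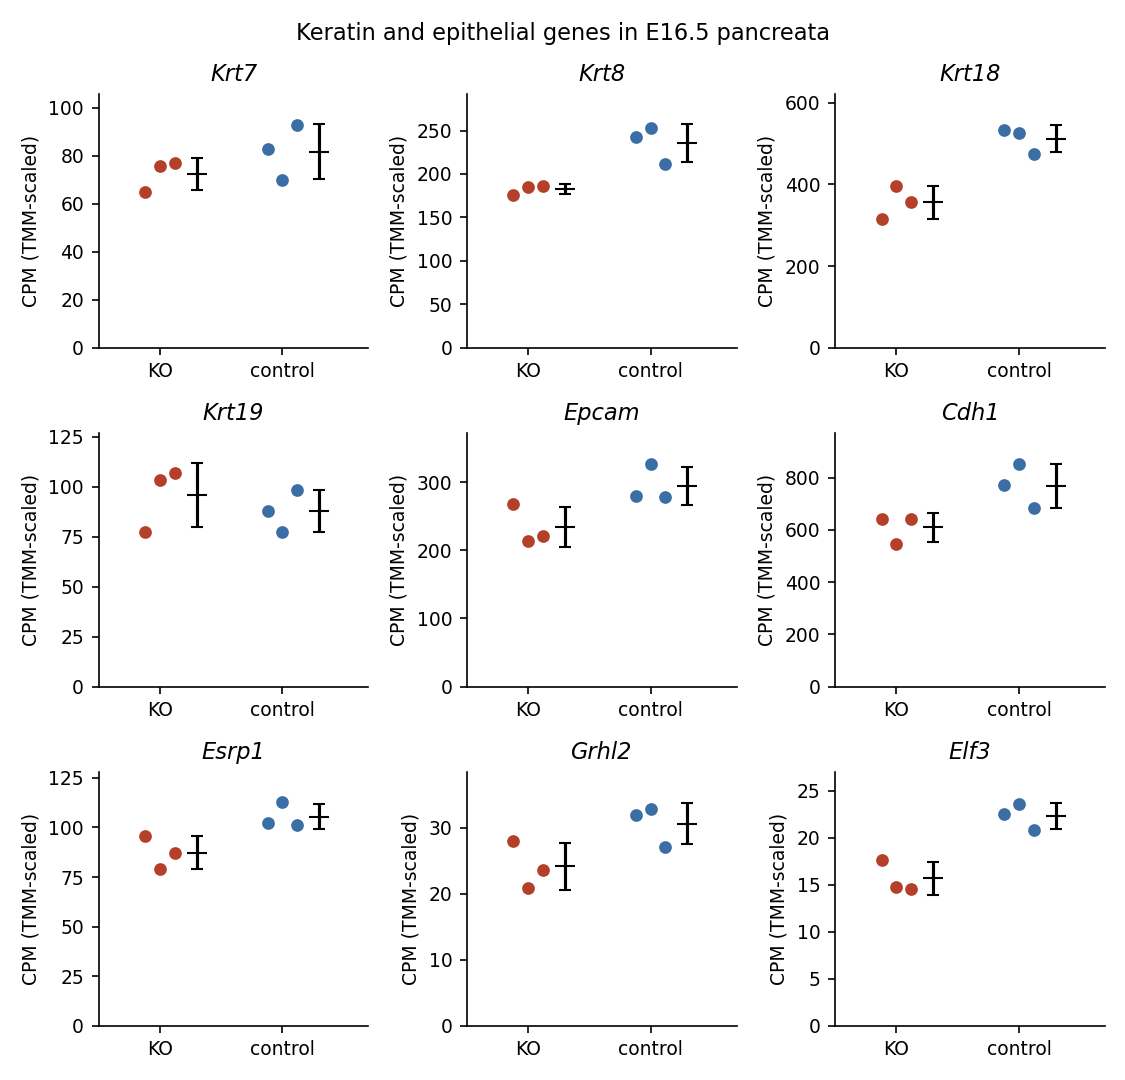
Level of each gene in CPM (linear axes from 0) in each E16.5 library, KO in red on the left and control in blue on the right, with the mean and SD (n = 3 each) as black bars. KO and control points are apart for Krt8, Krt18, Epcam, Cdh1, Esrp1 and Elf3, and overlap for Krt7, Krt19 and Grhl2.

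Krt18, the type I partner of Krt8, was at 314, 397 and 356 CPM in KO pancreata 01, 18 and 19, against 534, 527 and 473 CPM in control pancreata 02, 08 and 13. All 3 KO libraries were below all 3 control libraries, and the log2 fold change was -0.52 (SE 0.097, edgeR adjusted p = 0.0285). Krt8, the type II chain, was at 176, 185 and 186 CPM in KO pancreata, against 243, 253 and 211 CPM in control pancreata. The KO libraries were nearly level with each other (182 ± 5.86 CPM, SD, n = 3) and below controls without overlap (236 ± 21.6 CPM, SD, n = 3). Krt8 fell by 0.37 on the log2 scale (SE 0.077, edgeR adjusted p = 0.0358). Transcripts of the pseudogene Krt8-ps match Krt8 at 98.6% over 941 bases. Krt8-ps is not among the counted genes, and whether reads that match both were counted for Krt8 or left out is not known.

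Krt7, a type II keratin of ducts, was at 64.8, 75.6 and 77.0 CPM in KO pancreata, against 82.7, 69.7 and 92.5 CPM in control pancreata. The groups overlapped, and the log2 fold change was -0.17 (SE 0.111, edgeR adjusted p = 0.366). Krt19, the type I keratin most used as a duct marker, was at 77.6, 103 and 107 CPM in KO pancreata, against 88.0, 77.5 and 98.6 CPM in control pancreata. It was the only gene of the 9 with a fold change above 0 (0.12, SE 0.133, edgeR adjusted p = 0.603), and its groups overlapped, with KO 01 next to the lowest control.

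Among the surface adhesion genes, Epcam was at 267, 213 and 222 CPM in KO pancreata, against 279, 327 and 278 CPM in control pancreata. Cdh1 was at 643, 545 and 642 CPM in KO pancreata, against 771, 852 and 685 CPM in control pancreata. Neither overlapped between groups, but KO 01 for Epcam and KO 01 and 19 for Cdh1 lay close to the lowest control. Their log2 fold changes were -0.33 and -0.33 (SE 0.104 and 0.105), and neither passed the edgeR test (adjusted p = 0.0946 and 0.0939).

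Among the regulators, Elf3, an ETS-family activator, had 17.7, 14.8 and 14.6 CPM in KO pancreata, against 22.5, 23.6 and 20.8 CPM in control pancreata. It fell without overlap, by 0.51 on the log2 scale (SE 0.105, edgeR adjusted p = 0.0357). Esrp1 was at 95.6, 79.1 and 87.1 CPM in KO pancreata, against 102, 113 and 101 CPM in control pancreata, which is -0.27 on the log2 scale (SE 0.082, edgeR adjusted p = 0.0843). Grhl2, a direct activator of Cdh1 in mouse embryos, was at 28.0, 20.9 and 23.6 CPM in KO pancreata, against 32.0, 32.9 and 27.1 CPM in control pancreata. Esrp1 did not overlap between groups, Grhl2 did in that KO 01 exceeded control 13, and the log2 fold change of Grhl2 was -0.34 (SE 0.123, edgeR adjusted p = 0.132).

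The count of genes that fell rested on single libraries. It was 6 without KO 01, where 341 of all genes fell, 1 without KO 18, where 395 fell, and 0 without KO 19, where 192 fell, against 399 with every library. Without control 02, 08 or 13 none of the 9 passed, but only 0, 4 and 0 of all genes were called in either direction, so these counts say nothing of the 9 in particular. Through all of this Krt8, Krt18 and Elf3 stayed between -0.32 and -0.61 on the log2 scale. With DESeq2 5 of the 9 fell, Epcam and Cdh1 being added, where 632 of all 14914 genes fell. With library totals as the scale 1 did, Krt18, where 179 of all genes fell.

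Markers of several cell types also differed between KO and control pancreata at E16.5, in both directions. Of 9 mesothelium markers 2 rose, Upk1b (0.75) and Bnc1 (0.79), all 9 were above 0 on the log2 scale, among them the abundant Upk3b (0.57) and Lrrn4 (0.60), and their summed level was 462 to 616 CPM in KO pancreata and 306 to 441 CPM in control pancreata. Of 15 duct and trunk markers 7 fell, among them Sox9 (-0.47) and Wfdc2 (-0.49), and 1, Car2, rose. The summed level of these markers was 1649 to 1743 CPM in KO pancreata and 2226 to 2333 CPM in control pancreata, with Tff1 at 0 in every control. Of 18 acinar markers 1, Ptf1a, fell (-0.26), and 17 of the 18 were below 0, with a list median of -0.48. Of 20 endocrine markers 14 fell, and 19 of the 20 were below 0. The summed level of the endocrine markers was 1213 to 1918 CPM in KO pancreata and 2783 to 3608 CPM in control pancreata. Of 10 neural and glial markers 8 rose and 1, S100b, fell, with a list median of 1.91. Their summed level was 591, 292 and 158 CPM in KO pancreata 01, 18 and 19 and 66 to 72 CPM in control pancreata. Of 10 endothelial markers 2 fell, Eng (-0.58) and Flt1 (-0.53), all 10 were below 0 with a list median of -0.43, and the summed level was 703 to 933 CPM in KO pancreata and 925 to 1195 CPM in control pancreata. Of 7 smooth muscle markers 5 rose, and of 10 fibroblast markers none passed the test (summed level 15495 to 21986 CPM in KO pancreata and 15329 to 17979 CPM in control pancreata). Of 10 blood and immune markers 1, Lyz2, rose (0.95), with a list median of 0.49 and summed levels of 1365 to 2565 CPM in KO pancreata and 1253 to 1566 CPM in control pancreata. Of 8 liver markers none rose and 1, Ttr, fell (-0.50), with a list median of 1.6 and the summed level high in KO 01 alone. The part of these markers in the fall of Krt8, Krt18 and Elf3 was not tested.

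The calls depended on the scale. When libraries were scaled to the summed level of 18 other epithelial genes (Cldn3, Dsp, Spint1 and Esrp2, the paralogue of Esrp1, among them), the all-gene median shifted to 0.36 and 8271 of 14914 genes rose. These 18 genes were themselves lower in KO pancreata with TMM scaling, all 18 below 0 and 12 past the test, with a median of -0.42. The scale therefore moves every gene up alike, and it shows the 9 genes relative to those 18. With that scale Krt8 was at -0.01, Krt18 at -0.16 and Elf3 at -0.15, none past the edgeR test (adjusted p = 0.948, 0.254 and 0.265). Krt7, Epcam, Cdh1, Esrp1 and Grhl2 lay between 0.02 and 0.18 and did not pass. Krt19 was at 0.47 and passed (SE 0.164, edgeR adjusted p = 0.0356), beside an all-gene median of 0.36 on that scale.

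**Figure D2:**
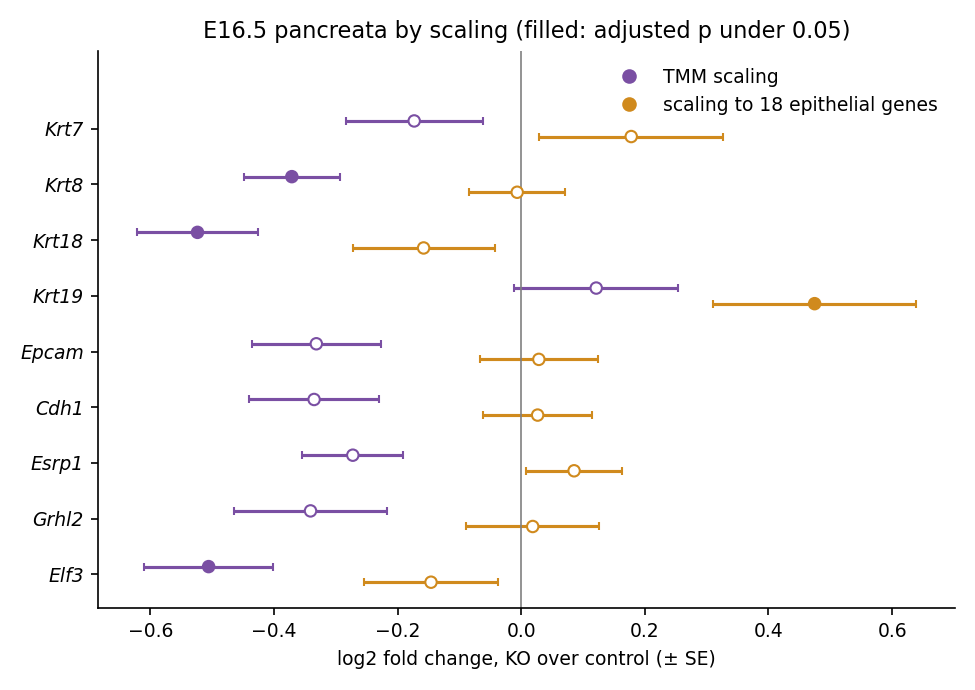
Log2 fold change of KO over control at E16.5 (points) for each gene with TMM scaling in purple and with scaling to 18 other epithelial genes in orange. Bars are ± SE derived from the edgeR F statistic, and filled points passed an adjusted p of 0.05. Krt8, Krt18 and Elf3 are filled with TMM scaling and open with epithelial scaling, and Krt19 is filled with epithelial scaling alone.

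Ratios between genes within a library do not depend on the scale of that library. They were added after the levels had been seen, as 9 ratios per tissue of reads per kb of gene length. The ratio of Krt19 to Krt18 was 0.244, 0.257 and 0.297 in KO pancreata 01, 18 and 19, against 0.163, 0.146 and 0.206 in control pancreata 02, 08 and 13. Every KO library was above every control library (exact two-sided permutation test, p = 0.1, the smallest that 3 against 3 allow, and 0.45 after Benjamini-Hochberg adjustment over the 9 ratios). The ratio of Elf3 to Epcam was 0.0681, 0.0716 and 0.0676 in KO pancreata, against 0.0832, 0.0743 and 0.0770 in control pancreata, also without overlap and with the same exact p of 0.1. The other 7 ratios overlapped, among them Krt8 to Krt18 at 0.400 ± 0.0359 in KO pancreata and 0.357 ± 0.0136 in control pancreata (SD, n = 3 each).

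**Figure D3:**
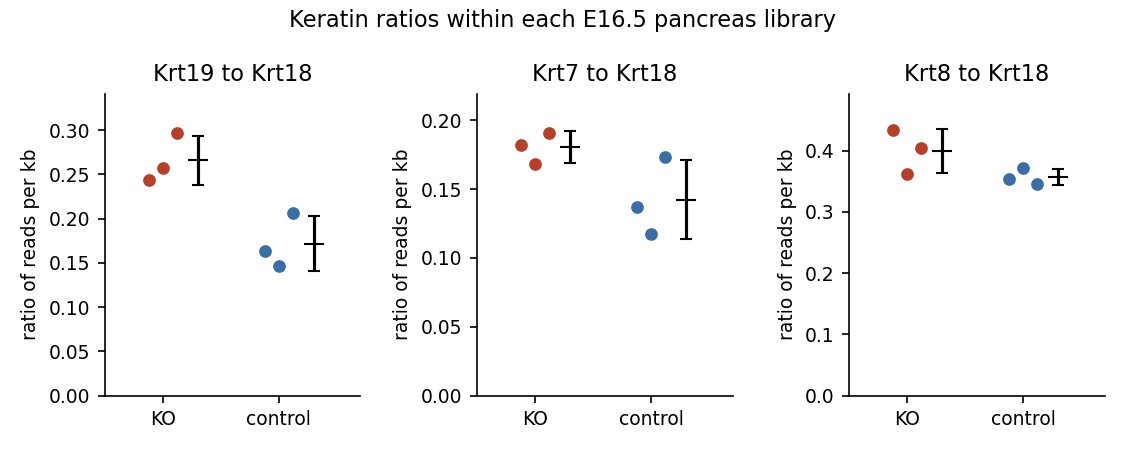
Ratio of reads per kb between pairs of keratins within each E16.5 library, KO in red on the left and control in blue on the right, with the mean and SD (n = 3 each) as black bars on linear axes from 0. Krt19 to Krt18 lies at 0.244 to 0.297 in KO pancreata and 0.146 to 0.206 in control pancreata, and the other pairs overlap.

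Other epithelial genes were counted from lists. Of 33 junction and surface genes tested, 17 fell and none rose, with a median of -0.28 against -0.00 over all genes. The 18 scaling genes all belong to this list except Esrp2, which is in the list of factors below. The 12 scaling genes that fell are thus among these 17, and the counts are not separate results. The claudins Cldn3, Cldn6 and Cldn7, tight junction strands, were at -0.64, -0.49 and -0.54, and the protease inhibitors Spint1 and Spint2 at -0.46 and -0.51 (edgeR adjusted p from 0.0176 to 0.0198). Dsp, the desmosomal plaque protein that anchors keratins, was at 205 CPM on average in KO pancreata and 207 CPM in control pancreata (log2 fold change -0.01, edgeR adjusted p = 0.967). Of 16 other transcription and splicing factors 6 fell and none rose, with a median of -0.25. Among those that fell were Ehf (-0.46), Foxa2 (-0.46), Elf5 (-0.69), Foxa3 (-0.46) and Ovol1 (-0.51). Ehf and Elf5 belong, with Elf3, to the epithelial ETS factors. Gata4, the most abundant of the list with Ehf, was at -0.10 (edgeR adjusted p = 0.624).

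None of 11 other keratins passed the test at E16.5. Krt80, the most abundant, was at 17.2 CPM on average in KO pancreata and 16.8 CPM in control pancreata, and Krt23 was at 6.41 ± 1.29 CPM in KO pancreata and 9.35 ± 1.16 CPM in control pancreata (SD, n = 3 each, edgeR adjusted p = 0.0957). None of 10 keratin partners and modifiers passed, with Plec, the plectin linker, at 0.25 and Sqstm1, a component of keratin aggregates, at -0.16. Of 22 mesenchymal genes 2 rose, Cdh2 (N-cadherin) by 0.68 and Fn1 (fibronectin) by 0.53 on the log2 scale (edgeR adjusted p = 0.0463 and 0.0475). Cdh2 was at 53.8 and 33.6 CPM on average in KO and control pancreata, and at 212 and 211 CPM in KO and control islets. Which cells the rise of Cdh2 at E16.5 came from was not tested. The collagens Col3a1 and Col1a1, the most abundant, were at 0.14 and 0.17 and did not pass. The summed level of the mesenchymal list was 17490 to 24452 CPM in KO pancreata and 16920 to 19850 CPM in control pancreata.

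In islets none of the 8 genes tested passed, where 0.155% of all 14219 genes tested did (0.113% higher and 0.0422% lower). Every gene overlapped between groups, whereas 0.781% of all genes were higher and 0.774% lower without overlap. None had an unadjusted p under 0.05, against 7.17% of all genes, and DESeq2 called none. The targeted gene Tff2 itself did not pass in islets (log2 fold change -3.07, edgeR adjusted p = 0.0884). A gene short of the threshold here may therefore still differ. Epcam was at 141, 139, 135, 131 and 138 CPM in KO islets 055, 122, 803, 812 and 845, against 141, 129, 140, 135 and 137 CPM in control islets 052, 826, 829, 857 and 858. The log2 fold changes of Epcam and Cdh1 were 0.00 and -0.00 (SE 0.038 each), and those of Krt7 and Esrp1 were -0.08 each (SE 0.047 and 0.044). Elf3 was at 17.0 ± 1.60 CPM in KO islets and 15.6 ± 2.49 CPM in control islets (SD, n = 5 each).

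Krt8 had a coefficient of variation of 17.7% in KO islets and 17.7% in control islets, whereas that of Epcam was 2.88% in KO islets and 3.59% in control islets. Krt8 was at 123, 99.2, 80.5, 84.1 and 90.1 CPM in KO islets, against 112, 71.9, 78.3, 83.0 and 86.3 CPM in control islets. KO 055 and control 052 were the highest of their groups, and the log2 fold change was 0.14 (SE 0.129, edgeR adjusted p = 0.874). Krt18 was at 158, 141, 116, 127 and 126 CPM in KO islets, against 143, 110, 132, 114 and 125 CPM in control islets, again highest in KO 055 and control 052, and its difference was 0.10 on the log2 scale (SE 0.089, edgeR adjusted p = 0.876).

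Of 10569 genes with a mean of at least 5 CPM in islets, those whose log2 CPM was most like Krt8 across the 10 libraries were Trib1, Arc and Rgs16 (Pearson r of 0.954, 0.946 and 0.945). Arc, an immediate early gene of neurons, was at 24.6, 7.44, 3.20, 2.15 and 2.84 CPM in KO islets, against 21.3, 1.49, 1.37, 2.61 and 5.94 CPM in control islets. Its 2 high libraries were those of Krt8. With log2(CPM + 1) and KO 055 and control 052 left out, r was 0.876 for Trib1, 0.810 for Arc and 0.833 for Rgs16 over 8 libraries. The genes were picked as the most alike, so r is a description and no p is given. For Krt18 the most alike were Stk39, Sap18 and Tceal3, for Krt7 Ttc1, Herpud2 and Nudt9, for Epcam Cyp2j6, Tceal3 and Alyref, and for Cdh1 Dis3l2, Capn5 and Vamp2. Those of Esrp1 were Prrc1, Ccnt1 and Ulk2, and those of Elf3 were Slirp, Ptpn6 and Nckap5l (r from 0.882 to 0.959 for these 18 names).

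Krt19 and Grhl2 were near the limit of detection in islets. Krt19 had 12, 20, 34, 27 and 50 reads in KO islets, against 29, 20, 22, 3 and 21 reads in control islets, and its log2 fold change was 0.58 (SE 0.482, edgeR adjusted p = 0.866). Grhl2 had 44 reads over the 5 KO islets and 45 over the 5 control islets, and did not pass the low-count filter. Acinar markers summed to 267 to 2252 CPM in KO islets and 567 to 1761 CPM in control islets, duct markers to 349 to 414 CPM in KO islets and 334 to 368 CPM in control islets, and the part of such cells in the reads of Krt19 and Grhl2 was not tested. In the same islets 7 of 14 other keratins had no read in any KO library and 9 had none in any control library, while Krt222, an atypical keratin-like gene, was at 15.0 ± 1.05 CPM in KO islets and 13.5 ± 0.688 CPM in control islets (SD, n = 5 each). None of the 5 lists of other epithelial, keratin and mesenchymal genes had a member past the test in islets. The adhesion gene Dsp was at 195 CPM on average in KO islets and 210 CPM in control islets (edgeR adjusted p = 0.631). Of 12 duct markers 1 rose, Ambp, by 0.47 (edgeR adjusted p = 0.0188).

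The balance of the chains within islet libraries was also compared. The ratio of Krt7 and Krt8 together to Krt18 and Krt19 together was 1.40, 1.40, 1.53, 1.42 and 1.44 in KO islets, against 1.51, 1.55, 1.47, 1.65 and 1.52 in control islets (exact permutation test, p = 0.0317, and 0.214 after Benjamini-Hochberg adjustment over the 9 ratios). Krt7 to Krt18 was 0.900 ± 0.0745 in KO islets and 1.02 ± 0.0657 in control islets (SD, n = 5 each, exact permutation test, p = 0.0476, adjusted 0.214). Both overlapped between groups, and neither passed after adjustment.

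**Figure D4:**
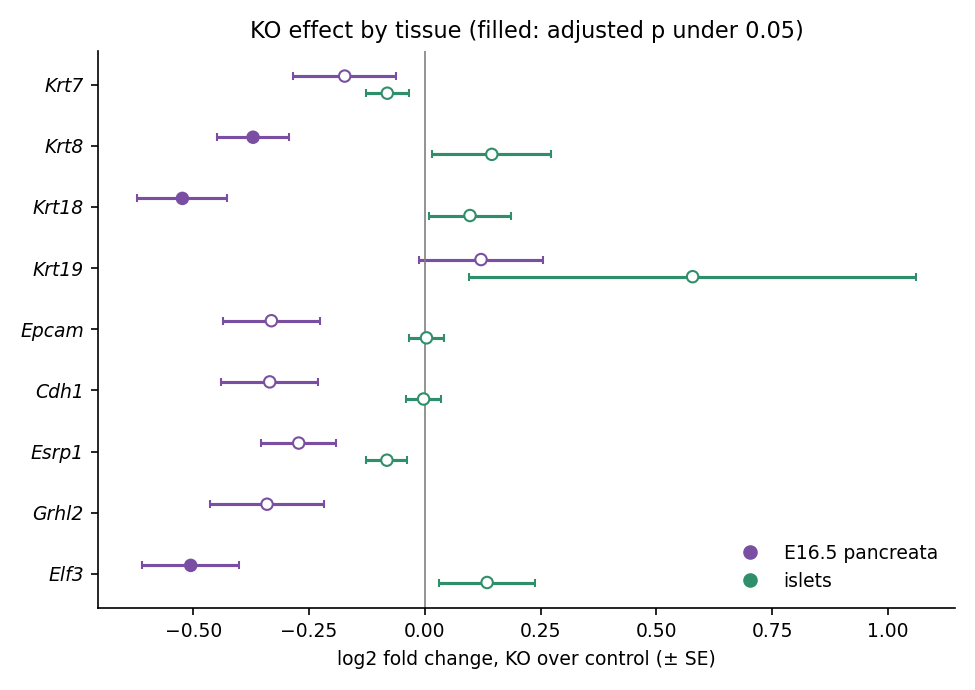
Log2 fold change of KO over control (points) for each gene in E16.5 pancreata in purple and in islets in green. Bars are ± SE derived from the edgeR F statistic, and filled points passed an adjusted p of 0.05. Krt8, Krt18 and Elf3 are filled at E16.5, no islet point is filled, and Grhl2 has no islet point since it was not tested there.

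The KO effects of the tissues were then compared directly, as the effect in islets minus the effect at E16.5 over all 16 libraries. Of the 9 genes, 4 passed, all with a positive difference, where 3.94% of 15823 genes passed with a positive and 3.25% with a negative one (7.19% in all). The differences were 0.64 for Krt18 (SE 0.146, edgeR adjusted p = 0.0167), 0.66 for Elf3 (SE 0.165, adjusted p = 0.0249), 0.35 for Cdh1 (SE 0.098, adjusted p = 0.0398) and 0.35 for Epcam (SE 0.099, adjusted p = 0.0402). Krt8, called at E16.5, differed by 0.53 and did not pass (SE 0.191, adjusted p = 0.106). With scaling to the 18 epithelial genes none of the 9 differences passed, where 97 of all genes passed with a positive difference. With library totals 1 did, where 299 of all genes passed with a positive difference, against 623 with TMM scaling. Leaving out single libraries gave 0 without control pancreas 02, 1 without control pancreas 08 and 2 without KO pancreas 18 or 19, KO islets 055, 122 or 845 or control islets 826, 857 or 858. Over all genes 515 to 1186 were called in either direction with single libraries left out, against 1137 with every library. The count over all genes moved markedly in 3 of the 16 runs, whereas that among the 9 fell to 2 or fewer in 10. In most of those 10 runs the lower count among the 9 thus did not go with far fewer genes called in all.

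Between control islets and control E16.5 pancreata all 9 genes passed the edgeR test, as 85.9% of all genes did (42.4% higher and 43.6% lower in islets). Grhl2, below the low-count filter in islets alone, entered the fit over 16 libraries through its pancreas reads. Its call was thus all but fixed in advance. Of the 9, 2 were higher and 6 lower without overlap, as were 41.0% and 42.3% of all genes. Age, tissue and preparation cannot be told apart in this contrast. Per kb of gene length, the levels in control islets ran from Cdh1 (121 CPM per kb) through Krt7 (97.1), Krt18 (96.0), Epcam (71.4), Krt8 (51.5), Esrp1 (37.5), Elf3 (8.38) and Krt19 (0.577) to Grhl2 (0.0766). In control pancreata they ran from Krt18 (329 CPM per kb) through Cdh1 (156), Epcam (129), Krt8 (118), Krt19 (56.0), Krt7 (46.4), Esrp1 (15.7) and Elf3 (10.03) to Grhl2 (5.42). Neighbours whose libraries overlapped were Krt7 with Krt18 in control islets, and Cdh1 with Epcam, Epcam with Krt8 and Krt19 with Krt7 in control pancreata.

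Krt7 and Esrp1 were higher in control islets than in control pancreata, by 1.07 and 1.26 on the log2 scale (SE 0.082 and 0.065, edgeR adjusted p = 1.85e-09 and 7.44e-12). Krt19 was lower by far, at -6.64 (SE 0.294), with Krt18 at -1.78, Krt8 at -1.19 and Epcam at -0.85. Grhl2 was at -6.19 (SE 0.282), with 3 to 15 reads per control islet library, and this value is a description only. Cdh1 was at -0.37 and Elf3 at -0.26, but at 0.22 and 0.32 with scaling to the 18 epithelial genes. Elf3 overlapped between the groups (edgeR adjusted p = 0.0423) and did not pass without control pancreas 02 or 08 or without control islets 826, 829 or 857 (adjusted p up to 0.139), nor with no low-count filter (0.0502). Of the 4 keratins Krt19 was the lowest per kb in control islets, where the libraries of Krt7 and Krt18 overlapped, and in control pancreata its libraries overlapped those of Krt7.

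**Figure D5:**
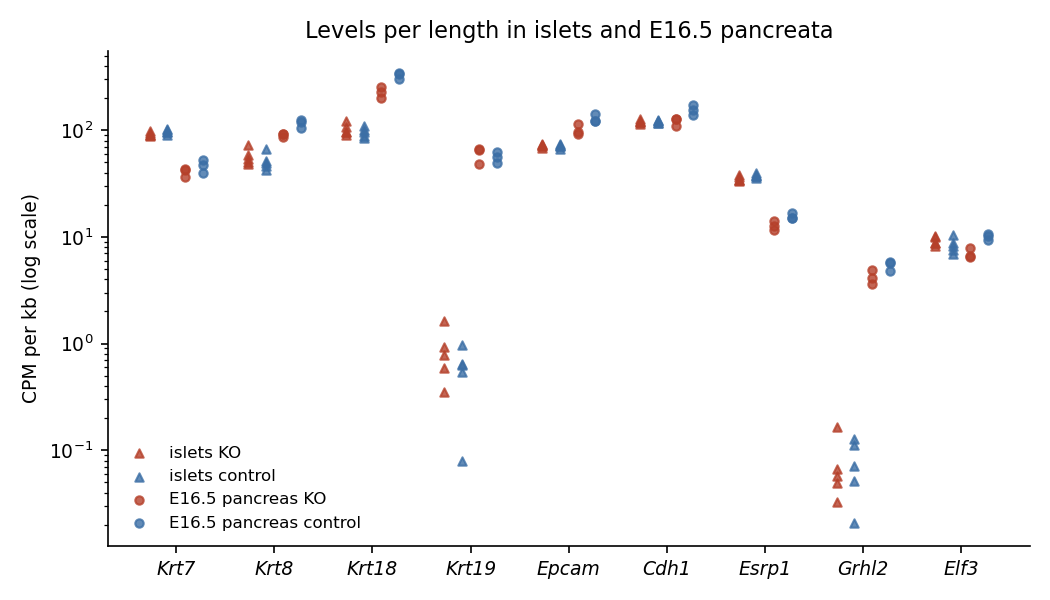
Level of each gene per kb of gene length (CPM per kb, log axis) in every library, islets as triangles and E16.5 pancreata as circles, KO in red left of control in blue. Krt19 and Grhl2 lie below 2 CPM per kb in all islets, and Krt7 and Esrp1 lie higher in islets than in pancreata.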

How the data were processed

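The authors deposited whole-number read counts of each gene for 6 E16.5 pancreata and 10 islet samples, with gene coordinates and lengths. Build mm10, HTSeq 0.11.1, STAR 2.6.0, edgeR and Trimmomatic appear in the submitters' processing notes. Neither annotation nor strand setting is given there, and antisense reads (Gm26642 at Elf3, Gm16136 at Grhl2) could not be told apart. Groups came from the labels. Counts were tested within each tissue with the edgeR 4.0.16 quasi-likelihood test in R 4.3.3 (TMM scaling, filterByExpr defaults, Benjamini-Hochberg over all genes tested, threshold 0.05), and over all 16 libraries for the tissue contrasts. Each SE was derived from the edgeR result, as the absolute log2 fold change divided by the square root of the F statistic. CPM were computed from the counts, and CPM per kb from TMM over 16 libraries and the deposited lengths. Log2 CPM for likeness used a prior count of 2, and no library pair agreed within sampling noise (chi-square per degree of freedom at least 5.09). Each library is labelled as its own animal, and litters were not known. The 9 genes and all lists were chosen with earlier results of these data known. Named from each list of other epithelial, keratin and mesenchymal genes were up to 4 genes of lowest p past the threshold and the 2 most abundant. Cell type marker lists were given as counts and summed levels. Only some of their members are named, not always those of lowest p or highest level. Foxa3, Ovol1, Car2, S100b and Esrp2 were added once values were known. A gene that the rule would name is not reported here. Alternatives were DESeq2 1.42.0, limma 3.58.1 voom with quality weights, a robust fit, other scalings (RLE, library totals, 18 epithelial genes), other filters and each library left out. Exact permutation tests used scipy 1.17.1.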

Additional observations from a re-analysis of the deposited data

Results flagged for a closer look

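Grhl2 in islet KO 845, at 0.776 CPM (18 reads), lay apart from the other KO islets, and so did its ratio to Cdh1 there, 0.00138 in reads per kb. A sample was set apart when its gap to the nearest other exceeded 0.71 of the range of its 5 samples, and chance gives such a sample in about 1 of 20 of the 38 groups examined. The KO effects in islets and at E16.5 differed for Krt18 (0.64), Epcam (0.35), Cdh1 (0.35) and Elf3 (0.66), as islets minus E16.5 on the log2 scale in the edgeR interaction test.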

How the results depend on the processing

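At E16.5 the number of the 9 genes past the threshold was 3, and 1 with library totals (Krt18), 1 with epithelial gene scaling (Krt19, higher), 5 with DESeq2, and 0 to 6 with single libraries left out. For the difference of the KO effects it was 4, and 1 with library totals, 0 with epithelial gene scaling and 0 to 4 with single libraries left out. No islet gene passed under any alternative, and 8 or 9 passed between control islets and control pancreata. Epithelial gene scaling, which moves all genes alike by about the fall of its own 18 genes, put above 0 Krt7 (0.18), Epcam (0.029), Cdh1 (0.027), Esrp1 (0.086) and Grhl2 (0.019) at E16.5, and it turned the sign of the differences of the KO effects for Krt7 (-0.23), Cdh1 (-0.00073), Esrp1 (-0.14) and Grhl2 (-0.027), and Cdh1 (0.22) and Elf3 (0.32) between control islets and control pancreata. In islets Cdh1 was at 0.0196 with library totals and 0.026 with epithelial gene scaling, and at -0.0226 to 0.0134 with single libraries left out, where Epcam was at -0.014 to 0.019; both lay within 1 SE of 0. Without islets KO 845 the difference for Grhl2 was -0.16 (-0.16 to 0.59 with single libraries left out). Over all genes 959 were called at E16.5, 8320 with epithelial gene scaling, 1550 with DESeq2 and 0 to 1035 with single libraries left out; in islets 22 were, 112 with DESeq2 and 5 to 26 with single libraries left out; for the difference 1137 were, 6262 with epithelial gene scaling and 515 to 1186 with single libraries left out. Library totals moved the split at E16.5 to 779 higher and 179 lower. The causes were not tested. No paired analysis was possible because the groups share no animal numbers. The few reads of Krt19 and Grhl2 limit their precision in islets.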
